A study of Mus musculus with 6 samples.

Results

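The 9 genes described here, TCEAL1, TCEAL3, TCEAL5, TCEAL6, TCEAL7, TCEAL8, BEX1, BEX2 and BEX4, belong to the Tceal and Bex family and are 9 of the 30854 gene names on the array used. They were chosen by their measured signals and detection p-values in the contrast of Dj1 knockdown with control myotubes. Their differences in that contrast are therefore given as a description, without a test. The family is listed with 15 of the 45281 probes on the array, and each probe was kept separately. Tceal proteins are named for their likeness to the transcription elongation factor TFIIS, and Bex stands for brain expressed X-linked. Both are small proteins encoded by neighbouring genes on the X chromosome, and they are best known from brain. In skeletal muscle, Tceal7 is known as a gene of differentiating myoblasts and Bex1 as a gene of regenerating fibres.

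The cells were C2C12, a mouse myoblast line that fuses into contractile myotubes after serum withdrawal. Myoblasts received 60 nM of scramble siRNA (3 arrays, Scramble) or of an siRNA against Dj1 (3 arrays, siDJ-1), started differentiation 48 h later and were harvested after 4 days. All 6 RNA samples were hybridized to 1 Illumina mouse BeadChip, on which a probe is read as the mean intensity of many beads. The detection p-value ranks a probe's intensity among the negative controls of its own array, and a probe with a value under 0.05 is called detected here. Between 16985 and 18179 probes were detected on a Scramble array and between 18408 and 18857 on a siDJ-1 array. The standard error over beads had a median from 8.3 to 11.3 on Scramble arrays and from 5.88 to 7.17 on siDJ-1 arrays. Bead noise was thus higher on each Scramble array than on any siDJ-1 array, and its part in the differences was not tested. Because separate cultures are not named for the samples, p-values measure the spread between these samples, which may be technical. With 3 arrays per group, the array number limits how precise each value can be.

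Dj1, the gene targeted by the siRNA, is listed as Park7 with 1 probe (ILMN_2728754), whose deposited signal was 12019.5, 10900.4 and 12251 in Scramble and 5935, 6586 and 4234 in siDJ-1 samples. All 3 siDJ-1 arrays lay below all 3 Scramble arrays. After background correction and quantile normalization limma gave a log2 fold change of -1.16 with a standard error of 0.14 and an adjusted p of 0.00344. Markers of myotubes gave high signals, such as 34796 to 47807 for Acta1, skeletal muscle actin. Of 34 myotube marker probes, 26 to 28 were detected on each array. Neural markers were close to background, and 19 of their 23 probes, all those of Snap25, Syt1 and Tubb3 included, were not detected on any array. Adipocyte markers were undetected on every array for 4 of 5 probes and leukocyte markers for 7 of 9.

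TCEAL7 had the largest difference among the members that were measured. Its probe (ILMN_2715279) gave 1812, 2112 and 1772 in Scramble and 301, 501 and 248 in siDJ-1 samples (deposited signal). This probe matched no Entrez number or accession of the RefSeq gene table and is named as the deposited table names it. The 3 siDJ-1 arrays lay far below the Scramble arrays, and the probe remained detected on each of them. The standard error over beads was between 3.16% and 5.5% of the signal on each array. On the normalized log2 scale the mean was 10.78 ± 0.13 (SD, n = 3) in Scramble and 7.65 ± 0.66 (SD, n = 3) in siDJ-1 myotubes. The log2 difference was -3.12 (standard error 0.31), which leaves 11.5% of the Scramble level. Without background correction it was -2.47. The larger SD in siDJ-1 came from replicate 2, at 8.40 against 7.40 and 7.16. Fewer cells expressing a gene and less RNA per cell cannot be told apart in such bulk samples.

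**Figure D1:**
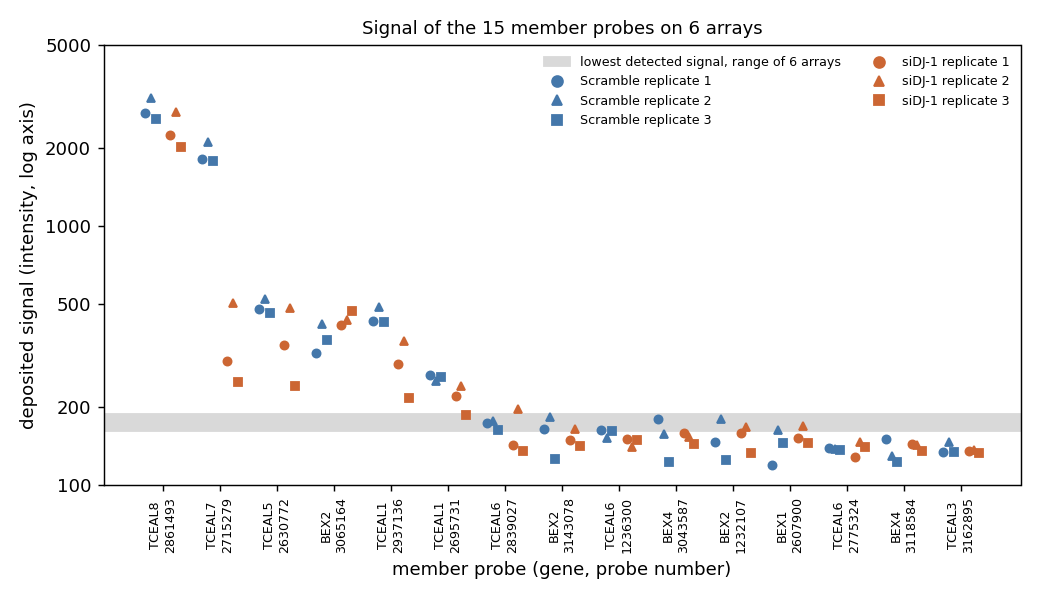
Deposited signal of the 15 member probes on each array (intensity, log axis), ordered by mean signal, with blue for Scramble, orange for siDJ-1 and 1 symbol per replicate. The grey band spans the lowest detected signal of the 6 arrays, from 161.6 to 187.4, and the 9 probes on the right lie in or near it.

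TCEAL1 was measured by 2 probes that passed the detection filter, and they differed in size. The brighter probe (ILMN_2937136) gave 429, 486 and 426 in Scramble and 292, 359 and 215 in siDJ-1 samples. The dimmer probe (ILMN_2695731) gave 266, 252 and 259.5 against 220, 241 and 186.5. Both had every siDJ-1 array below every Scramble array. The log2 difference was -1.003 (standard error 0.24) for the brighter probe and -0.55 (standard error 0.16) for the dimmer one. Without background correction these were -0.60 and -0.23, and without siDJ-1 replicate 3 the brighter probe stood at -0.74. The brighter probe was thus lower by 2-fold in the values given first and by less in these settings.

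TCEAL5 (ILMN_2630772) was lower by less than TCEAL7 and varied more between siDJ-1 arrays than between Scramble arrays. Its signal was 479, 519.5 and 459 in Scramble and 345, 481 and 240.4 in siDJ-1. The deposited signal of siDJ-1 replicate 2 lay within the Scramble range. After normalization that array, at 8.32, was just below the lowest Scramble array, at 8.34. The log2 difference was -0.70 (standard error 0.30), with an SD of 0.63 in siDJ-1 against 0.08 in Scramble. It was -0.45 without background correction, -0.38 without siDJ-1 replicate 3 and -1.01 without siDJ-1 replicate 2. Probe sequences were not used here, so whether probes of similar members (TCEAL3, TCEAL5 and TCEAL6, or BEX1 and BEX2) also bind each other's transcripts was not examined.

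TCEAL8 had a probe with high signals and a small difference. This probe (ILMN_2861493) gave 2727, 3119.8 and 2584 in Scramble and 2239, 2747 and 2016 in siDJ-1 myotubes. The deposited signals overlapped, and the normalized values did not. The log2 difference was -0.31 (standard error 0.11), or 80.5% of the Scramble level, and -0.18 when arrays were aligned at their 75th percentile instead of by quantiles.

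Among the members with a probe that passed the filter, BEX2 was the one with a higher mean after Dj1 knockdown. Of its 3 probes, 1 passed the filter (ILMN_3065164), with signals of 322.5, 419 and 361 in Scramble and 413, 434 and 468 in siDJ-1. The deposited signals overlapped, since siDJ-1 replicate 1 lay below Scramble replicate 2. The log2 difference was 0.51 (standard error 0.21), and it was 0.34 without background correction, 0.33 without siDJ-1 replicate 3 and 0.35 without Scramble replicate 1. The other 2 BEX2 probes were not detected on any array.

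The remaining members stayed at background. BEX1, BEX4, TCEAL3 and TCEAL6 had no probe that passed the filter. Together with the 2 dim BEX2 probes they make up 9 probes, with signals between 119.2 and 196.7. Of their 54 probe and array pairs, 1 was detected, a TCEAL6 probe (ILMN_2839027) on siDJ-1 replicate 2. These arrays give no level for these genes, and no difference is given for them. A probe not detected does not show that the gene is silent.

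After normalization all 6 member probes that passed the filter had separate ranges in Scramble and siDJ-1. Such non-overlapping groups, in either direction, were seen for 48.5% of all 17890 tested probes. On the deposited scale 3 of the 6 did not overlap, the TCEAL7 probe and both TCEAL1 probes. A fitted fall of 2-fold or more was seen for 2 member probes and for 3.06% of all tested probes. Since the members were selected on this contrast, nothing is read from these counts.

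**Figure D2:**
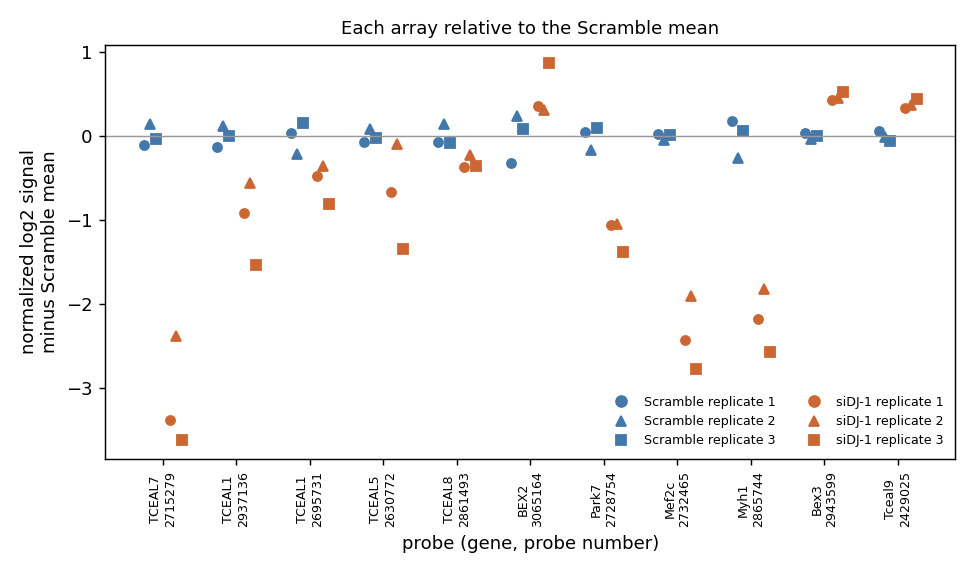
Normalized log2 signal of each array minus the Scramble mean of the same probe, for the 6 tested member probes, Park7, Mef2c, Myh1, Bex3 and Tceal9. TCEAL7 lies lowest, and siDJ-1 replicate 3 is below replicates 1 and 2 for TCEAL7, TCEAL1, TCEAL5, Park7, Mef2c and Myh1.

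The siDJ-1 arrays took the same order for several members. On the normalized scale replicate 2 was highest and replicate 3 lowest for TCEAL7, TCEAL5 and both TCEAL1 probes, that is for 4 of the 5 member probes with a lower mean. TCEAL8 had replicate 1 lowest on that scale, while its deposited signals took the order of the others. On the normalized scale the same order was seen for 42% of the 2427 other probes called lower and for 21.4% of all tested probes. It was also seen for 13 of the 15 myotube marker probes and for 3 of the 8 probes of myogenic regulators called lower. Of all tested probes 13.6% were called lower and 16.5% higher. The summed signal of the 34 myotube marker probes was 263607, 271760 and 250436 in Scramble and 213855, 252981 and 184754 in siDJ-1 samples. These sums are not normalized, and replicate 2 was also highest and replicate 3 lowest among siDJ-1 arrays in the sums of the cycling, neural, adipocyte and leukocyte markers and in the median signal of all probes (161, 166.9 and 152.3). The order of the sums is thus not particular to myotube markers. The median signals of the Scramble arrays took the same order (162.2, 167.4 and 153.5). Of the 27 tested myotube marker probes 15 were called lower and 2 higher (limma, adjusted p under 0.05). Among the 2 higher, a TTN probe (ILMN_2744368) was detected on 1 Scramble array and passed the filter through the siDJ-1 arrays. The median log2 fold change of the 27 probes was -0.56 against 0.05 over all tested probes. The part of this shift in the differences of the members was not tested. This order was noticed in these values and was chosen for description after they were seen.

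The members share their place in the genome. In the RefSeq gene table the X-linked genes of the family follow each other in the order Tceal6, Bex2, Bex4, Tceal8, Tceal5, Bex1, Tceal7, Tceal9, Bex3, Tceal3 and Tceal1. TCEAL7, with the largest difference, lies between BEX1, which was not detected, and Tceal9. Neighbours in this order thus differed in whether they were detected and in direction. Among these genes lie 19 other protein-coding genes, 15 of which are on the array with 21 probes. Of the 8 neighbour probes tested, 1 was called, that of Gprasp2, which was higher. The Gprasp2 probe was detected on 1 Scramble array and passed the filter through the siDJ-1 arrays, so nothing is read from this call. Over the whole X chromosome, without the members, 111 of 431 tested probes (25.8%) were called, beside 30.1% of all tested probes.

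Most of the members also share a promoter element, which is shown here because it was not used to choose them. RefSeq promoter windows of GRCm38.p6, from 250 bases before to 50 bases after each annotated start site, were found for 9 of 9 members. The motif searched on both strands was TGAC, then 8 to 10 bases of any kind, then CACGTGA. It was written down after the windows of the family had been read, so its count in the family is a description. It was present in 8 of the 9 members, all but BEX2, in Bex3 and in 3 of the 9 Armcx and Gprasp genes with a window. Of all genes with a window 35 of 27025 (0.13%), or 37 of 32851 windows (0.113%), held it. CACGTG, the palindrome inside the motif, was present in 7.15% of all windows, and CAGCTG, the E-box form preferred by myogenic factors, in 16.3%. CAGCTG was found in windows of TCEAL3 and TCEAL1, and not in that of TCEAL7. The TCEAL3 window with CAGCTG starts at base 136590592 and is not the one that holds its motif, at 136666362-136666388. The 250 bases before the TCEAL7 start site (chrX:136223791-136224040, plus strand) are given first, with TGAC and CACGTGA of the motif in capitals.
TCEAL7: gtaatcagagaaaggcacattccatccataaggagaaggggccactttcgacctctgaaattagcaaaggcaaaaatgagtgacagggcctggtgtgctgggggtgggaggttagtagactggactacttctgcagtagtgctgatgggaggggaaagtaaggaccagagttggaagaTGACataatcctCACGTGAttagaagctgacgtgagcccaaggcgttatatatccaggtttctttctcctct

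For the other members only the motif and its flanks are given, with the same letters in capitals. These windows lie at chrX:136172224-136172250 for TCEAL8, chrX:136203889-136203915 for TCEAL5, chrX:135210691-135210717 for TCEAL6, chrX:136707963-136707991 for TCEAL1, chrX:136666362-136666388 for TCEAL3, chrX:136215506-136215532 for BEX1 and chrX:136138971-136138997 for BEX4. TCEAL8, TCEAL5, TCEAL6 and BEX1 are read from the minus strand, and TCEAL1, TCEAL3 and BEX4 from the plus strand.
TCEAL8: ttgaTGACgcgatcctCACGTGAccag
TCEAL5: ctggTGACgttcctgtCACGTGAtcag
TCEAL6: agggTGACgctttgctCACGTGActgg
TCEAL1: gctgTGACgcgctcccctCACGTGAccag
TCEAL3: cgggTGACgcggtgttCACGTGAccgg
BEX1: cttcTGACgcaagtggCACGTGActag
BEX4: cttcTGACgcaagtggCACGTGActag

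The spacing was 8 bases in all of these except TCEAL1, where it was 10. The printed windows of BEX1 and BEX4 are the same 27 bases. TCEAL7 differed from the other members in the position of the motif, whose last base lay at -54 from the start site. In the others it ended between -9 and 24, counting the start site as 1. These positions are for 1 window per member, while the 9 members had 13 windows in all, 10 of which held the motif. The members with a detected signal (TCEAL7, TCEAL8, TCEAL5, TCEAL1) and those at background (BEX1, BEX4, TCEAL3, TCEAL6) both carried it, and BEX2, which was detected, did not carry it in its window. A match is a string of letters, and no binding was measured here.

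**Figure D3:**
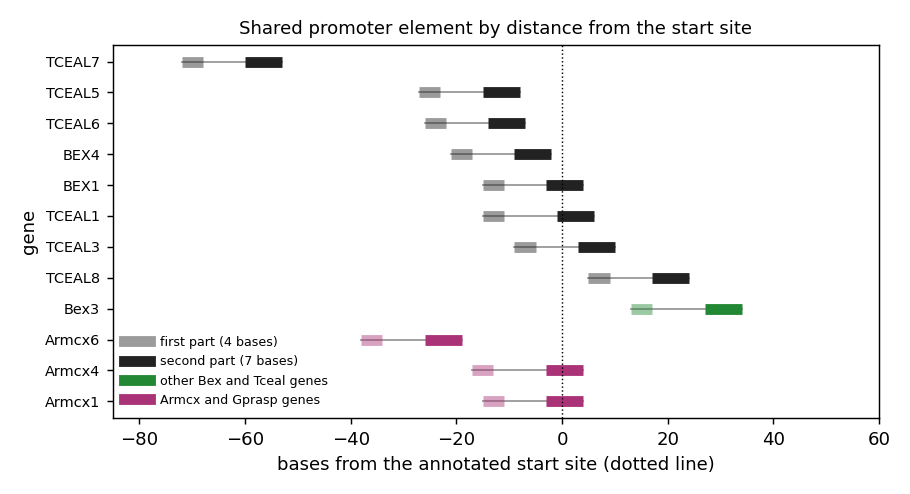
Position of the motif relative to the annotated start site (dotted line), in bases, for the members (black), Bex3 (green) and Armcx genes (purple), with the pale bar for TGAC and the dark bar for CACGTGA. The TCEAL7 motif ends at -54, farther upstream than the others.

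The related genes were compared with the members through the same motif, which Bex3 (chrX:136270262-136270290, plus strand), Armcx1 (chrX:134717919-134717945, plus strand), Armcx4 (chrX:134686498-134686526, plus strand) and Armcx6 (chrX:134751435-134751461, minus strand) carried. Their windows are given to set them beside those of the members.
Bex3: gcagTGACgcagggccctCACGTGAcccg
Armcx1: ctggTGACgtgcccctCACGTGAgccg
Armcx4: gcgaTGACgcggagccccCACGTGAcccg
Armcx6: ctggTGACgtggctgtCACGTGAccaa

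Family genes outside the members were Bex3, Tceal9 and Bex6. Bex3, listed under its older name NGFRAP1 and known as a partner of the p75 neurotrophin receptor, gave 2468, 2337 and 2261 in Scramble and 3190.2, 3588 and 3018 in siDJ-1 myotubes. Tceal9, listed as WBP5, gave 5447.5, 5333 and 4901 against 6675, 7620.4 and 6547. Both had all siDJ-1 arrays above all Scramble arrays. The log2 fold change was 0.47 (adjusted p = 0.0115 from limma) for Bex3 and 0.38 (adjusted p = 0.0238 from limma) for Tceal9. The call of Tceal9 was lost without a filter and with the replicate number as a block. It was also lost when any 1 array other than Scramble replicate 1 was left out. In these settings the adjusted p from limma was from 0.0557 to 0.0761. Both tested probes of these genes were thus called higher, in a list chosen with earlier results known. Of all tested probes 16.5% were called higher and 30.1% in either direction. Bex6, which lies on chromosome 16, was detected on 1 array and was not tested.

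**Figure D4:**
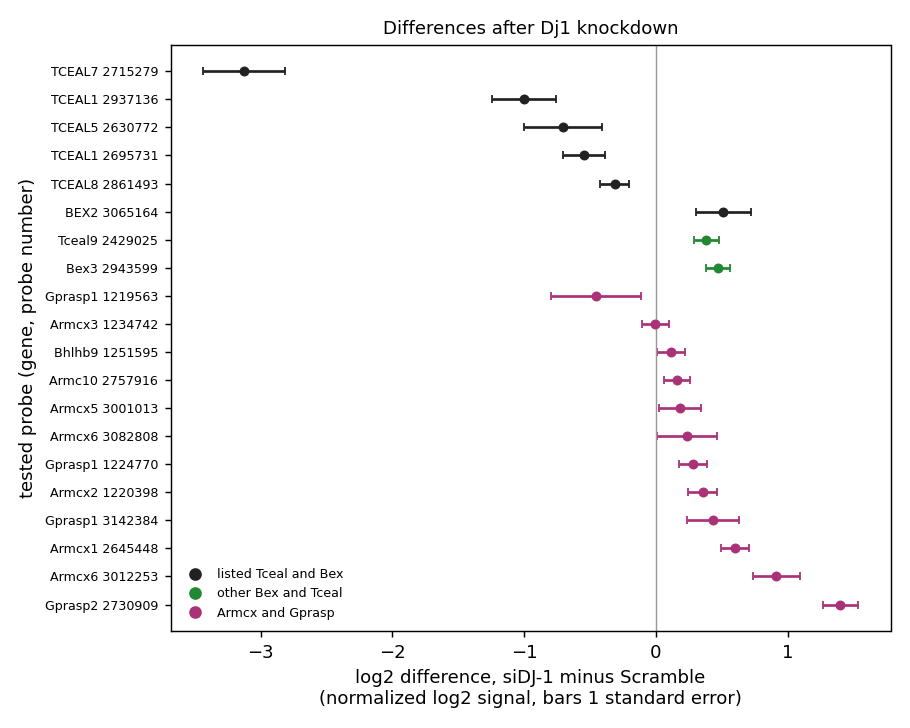
Log2 difference between siDJ-1 and Scramble (3 arrays each) for the tested probes of the listed members (black), the other Bex and Tceal genes (green) and the Armcx and Gprasp genes (purple), with bars of 1 standard error. The black points reach from -3.12 (TCEAL7) to 0.51 (BEX2), and the green points are at 0.38 and 0.47.

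Armcx and Gprasp genes encode proteins with armadillo-like repeats and lie among or near the family on the X chromosome, except Armc10 on chromosome 5. Armcx5, Bhlhb9, Gprasp1 and Gprasp2 are also among the neighbours counted above. Of 12 tested probes 4 were called higher and 0 lower by limma (0 lower also at an unadjusted p under 0.05), with a median log2 fold change of 0.26. That is 33.3% called, beside 30.1% of all tested probes. Gprasp2, among the 4 probes called higher, was at 1.40 on the log2 scale. Its signals were 172, 169 and 168 in Scramble, where 1 of 3 arrays detected it, and 223, 250.4 and 221 in siDJ-1. The size of this rise is uncertain, because the Scramble signals are near background. The probe passed the filter through the siDJ-1 arrays, so nothing is read from its call, which the count of 4 includes. Without background correction the value was 0.48. Armcx6 (ILMN_3012253) was higher by 0.92, Armcx1 by 0.60 and Armcx2 by 0.36, the last with an adjusted p of 0.048 from limma. The Armcx6 value was 0.37 without background correction. The Armcx2 call was lost without a filter, with the replicate number as a block and when any 1 array was left out. In these settings the adjusted p from limma was from 0.0595 to 0.134. Armcx6 has another tested probe (ILMN_3082808), which gave 0.24 with an adjusted p of 0.463 from limma, 0.02 without Scramble replicate 2 and 0.49 without Scramble replicate 3. The mean of both Armcx6 probes was at 0.58 and was called (adjusted p = 0.0165 from limma). The size of this mean is uncertain, because the second probe (ILMN_3082808) was detected on 1 Scramble array and 3 siDJ-1 arrays. That probe passed the filter through the siDJ-1 arrays, so nothing is read from this call. Armcx3, Armcx5, Bhlhb9 and Armc10 were not called, nor were the 3 tested probes of Gprasp1, at 0.43, 0.28 and -0.45. The first (ILMN_3142384) was at 0.21 without Scramble replicate 3. The last of these (ILMN_1219563) was called lower without Scramble replicate 1 (-0.85, adjusted p = 0.0387 from limma) and stood at -0.09 without Scramble replicate 3. Of the motif carriers outside the members, Bex3, Armcx1 and 1 of 2 tested Armcx6 probes were called higher, and no probe was listed for Armcx4. Of all tested probes 16.5% were called higher. Tceal9 and Armcx2, in whose windows the motif was not found, were also called higher. The member carriers with a tested probe, TCEAL7, TCEAL1, TCEAL5 and TCEAL8, had lower means. Nothing is read about the motif from these calls. The 23 other genes with the motif were not examined.

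The genes after which the family is named, and its known partners, were compared next. Of 40 tested probes of transcription elongation factors, 7 were called higher and 5 lower (30% in all, beside 30.1% of all tested probes). Tcea3, a TFIIS form, was higher by 0.84 and 0.74 on its 2 probes (adjusted p = 0.00539 and 0.00514 from limma), Ell by 0.82 and Ccnt1, the cyclin of P-TEFb, by 0.79 (ILMN_2758087). The Ccnt1 call was lost without Scramble replicate 2 and without siDJ-1 replicate 1 or 3, with adjusted p from 0.0504 to 0.0545. In all, 4 probes of the list were called without siDJ-1 replicate 1, 4 without siDJ-1 replicate 3 and 7 without a filter. Nelfa, a subunit of the negative elongation factor, fell by 0.78 (adjusted p = 0.00985 from limma). Bex binding partners gave 1 called probe of 13 tested, that of the kinase Ripk2, higher by 0.62 (adjusted p = 0.00661 from limma), and up to 5 called probes in other settings. The share was 7.69%, beside 30.1% of all tested probes. The 3 probes of Ngfr, which encodes the p75 receptor bound by Bex1 and Bex3, were not tested, since fewer than 3 arrays detected each of them.

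Regulators of the muscle programme were compared because Tceal7 and Bex1 are known from it. Of 18 tested probes 8 were called lower and 0 higher by limma (0 higher also at an unadjusted p under 0.05), with a median log2 fold change of -0.27. That is 44.4% called, beside 30.1% of all tested probes (13.6% lower). Several of the 8 calls are probes of 1 gene, Mef2c, and others are of Id1 and Id3. Because the list mixes such genes, its calls are not read as a single direction of the muscle programme. Without Scramble replicate 3, siDJ-1 replicate 2 or siDJ-1 replicate 3, 5 probes were called. Mef2c, a factor of late muscle differentiation, gave 4227, 4114 and 4058 in Scramble and 872.5, 1331 and 630 in siDJ-1 with its brightest probe (ILMN_2732465). The log2 fold change was -2.37 (adjusted p = 0.00277 from limma), and 2 further probes gave -2.61 (-1.73 without background correction) and -2.48. Another called probe, listed as MEF2C but matched to no RefSeq gene (ILMN_1220270), was near background, with detection on 2 Scramble arrays and 1 siDJ-1 array, and no size is given for it. Id3 fell by 1.40 (adjusted p = 0.00494 from limma) and by 0.70 without background correction. Id1 was at -0.57 (adjusted p = 0.026 from limma). Among myotube markers Myh1, an adult fast myosin, had log2 fold changes of -2.19 and -1.93 on 2 probes. Actn2, of the Z-disc, was at -1.13, a call lost without Scramble replicate 3 and without siDJ-1 replicate 1 or 3 (adjusted p from 0.0526 to 0.0723). A probe listed as TTN, for titin, but matched to no RefSeq gene (ILMN_1228221) was at 1.77. Of the other probes of that name 3 were called lower and 1 higher (ILMN_2744368). The latter was detected on 1 Scramble array and 3 siDJ-1 arrays and passed the filter through the siDJ-1 arrays, so nothing is read from its call. As a mean over the tested probes named TTN the value was 0.04 and was not called (adjusted p = 0.826 from limma). Of cycling myoblast markers 1 of 8 tested probes was called, with Ccnb1 at -0.57 (adjusted p = 0.0161 from limma), a call lost without siDJ-1 replicate 1 or 3 (0.057 and 0.055). The median of that list was 0.22, and at an unadjusted p under 0.05 limma gave 3 probes higher and 1 lower. Of the neural markers 3 probes were tested and Gap43 was called, at -0.55 (adjusted p = 0.0247 from limma), with signals of 211, 229.6 and 208 in Scramble and 182, 203 and 169.8 in siDJ-1. That call was lost without background correction, where the value was -0.19 and the adjusted p 0.0937, and also without a filter, with a trend in the prior variance, without Scramble replicate 2 or 3 and without siDJ-1 replicate 1 or 3. No adipocyte marker probe was tested, and the 1 tested leukocyte probe, that of Cd68, was not called.

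The genes whose profile over the 6 arrays was most like that of the brightest members were then listed. Among 14698 probes of other genes detected on all arrays, the 3 nearest to TCEAL7 by Euclidean distance of centred log2 values were Fxyd6, Cmpk2 and Tril. Their distances were 0.543, 0.664 and 0.703. Fxyd6, a regulator of the sodium pump, stood at 9.56, 10.19 and 10.29 in Scramble and 6.83, 7.44 and 6.41 in siDJ-1 on the log2 scale. Its log2 fold change was -3.12, and -2.20 without background correction. The nearest to TCEAL8 were Zmynd11, Map2k2 and Gm5560, at distances of 0.074, 0.075 and 0.082. Their log2 fold changes were -0.32, -0.28 and -0.29, and those of Map2k2 and Gm5560 were -0.15 and -0.16 with arrays aligned at their 75th percentile. No test is given, since these genes were chosen for this profile. The distances include the difference between the groups.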

How the data were processed

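RNA of 3 Scramble and 3 siDJ-1 myotube samples was labelled, hybridized and scanned by the authors, who quantified it in GenomeStudio. The deposited intensity of each probe was neither normalized nor corrected for background. The detection p-value, made by the authors from the negative controls of each array, was deposited beside it with the bead number and standard error. With limma 3.58.1 in R 4.3.3, background was corrected by normexp (offset 16, controls inferred from the detection p-values), followed by quantile normalization and log2. A probe was tested where at least 3 of 6 arrays gave a detection p under 0.05, which 17890 of 45281 did. The model used lmFit and eBayes, with Benjamini-Hochberg adjustment over all tested probes. The procedure was tested on simulated data.

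The members and the gene lists were chosen with earlier results of these data known. Probes of a gene were kept apart, and 32345 were named through the RefSeq gene table of GRCm38.p6 by Entrez number or accession, the others by the deposited name. Of each list outside the family, up to 4 called probes with the largest absolute log2 fold change were named, and the 3 nearest profiles of the members TCEAL7 and TCEAL8. Other probes named were chosen after their values were seen. Alternatives changed background correction, normalization, offset, filter, prior variance, the replicate block, single arrays and the averaging of probes. Promoter windows came from RefSeq. The study's other experiments were not analysed here.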

Additional observations from a re-analysis of the deposited data

How the results depend on the processing

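Outside the filter and the arrays left out in turn, the number of called probes stayed within 1.5 times of 5387. It was 3519 with no filter, and leaving out 1 array gave from 2444 (without siDJ-1 replicate 1) to 5302 (without Scramble replicate 1), with 2612 without siDJ-1 replicate 3, where fewer arrays were compared. Park7 was called in every alternative, with log2 fold changes from -1.242 to -1.003.

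Of the 6 tested member probes, 2 were lower by 2-fold or more, and 1 was with no background correction, also when combined with the 75th percentile shift, with offset 50 and with the mean of probes per symbol. Leaving out 1 array gave 1 to 3. No member probe changed direction in any alternative.

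Among other Bex and Tceal genes 1 probe was called with no filter (2 in the reported fit) and 1 to 2 with 1 array left out. For Armcx and Gprasp genes the stricter filter, a detection p under 0.01 on all 6 arrays, gave 2 (4). For elongation factors no filter gave 7 (12), and leaving out 1 array gave 4 to 10. For myogenic regulators no filter and the mean per symbol each gave 5 (8), and leaving out 1 array gave 5 to 7. For Bex binding partners (1) the count was 4 with no background correction, with or without the 75th percentile shift, 3 with that shift after background correction, with offset 50 and with the stricter filter, 5 with a trend in the prior variance, and 1 to 2 with 1 array left out.

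Armcx3, at -0.003, was positive with the 75th percentile shift (0.047, and 0.001 with no background correction), and leaving out 1 array gave -0.057 to 0.051. The Gprasp1 probe at -0.45 (ILMN_1219563) belongs to a gene whose mean over probes was 0.087. The cause of these changes was not tested, beyond the smaller number of arrays or the larger number of probes tested.

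With the replicate number as a replicate block, 4350 probes were called in all, 1 of other Bex and Tceal genes, 3 of Armcx and Gprasp genes, 8 of elongation factors, 6 of myogenic regulators and 2 of Bex binding partners. The calls of Tceal9 and Armcx2 were lost (adjusted p of 0.0632 and 0.0733 from limma), and no other named probe whose alternatives were computed lost its call. Whether the numbers pair the samples is not stated and cannot be told from these values. The deviations of same-numbered samples correlated at 0.054, 0.047 and 0.02. Their median signals were close, at 162.2, 167.4 and 153.5 in Scramble and 161, 166.9 and 152.3 in siDJ-1. Each sample correlated best with its own number, which is a hint from the data and not the design.

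Signal over background limits the dim probes. With no background correction, differences were smaller by over 1.5 times for both TCEAL1 probes, TCEAL5, Gprasp2, Armcx5, both Armcx6 probes, 2 Gprasp1 probes, Id3, Gap43, Cmpk2 and a Mef2c probe (ILMN_1214950), and the 9 member probes at background gave no level.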
